A study of Homo sapiens with 4 samples.

Results

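The clustered protocadherins are cell-surface adhesion proteins of the cadherin superfamily, encoded in tandem on the long arm of chromosome 5 as an alpha, a beta and a gamma family. The members described here are the protein-coding genes of chromosome 5 in the RefSeq table whose symbols start with PCDHA, PCDHB or PCDHG. They number 53 of the 19974 protein-coding genes that the table places on the autosomes and X: 15 alpha, 16 beta and 22 gamma genes. They span 727 kb of hg38, chr5:140786140-141512975. The rule uses symbol and position alone, and the gene group was picked with earlier results of these data known.

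In the alpha and gamma families each gene has its own promoter and first (variable) exon, spliced to exons at the 3′ end that the whole family shares. The beta genes stand alone, each with its own end. Neurons are known to switch on a few of the variable promoters at random. The choice is tied to the factor CTCF and the cohesin ring, to a short promoter element with the core letters CGCT, and to DNA methylation. The C-type genes at the end of the alpha and gamma families (PCDHAC1, PCDHAC2, PCDHGC3, PCDHGC4 and PCDHGC5) are known to be less subject to this random choice.

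The assay was CUT&Tag against γH2AX, the phosphorylated form of the histone variant H2AX that marks broken DNA, in the human liver cancer line HepG2. In CUT&Tag an antibody on chromatin recruits a transposase, which inserts sequencing adapters into the DNA around it. There are 4 samples: lipid-overloaded cells (titled PAOA) with the γH2AX antibody, lipid-overloaded cells with IgG, mock-treated cells (titled DMSO) with the γH2AX antibody, and mock-treated cells with IgG. Peak lists were used for both γH2AX libraries, 1 per condition, so no difference below has a replicate check or a p-value, and condition, library and depth cannot be told apart. The IgG samples were not analysed here. Expression was not measured in the files used, so cell identity rests on the labels.

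The lipid-overload list held 27296 peaks and the mock list 8542. Peak height is given below as sequenced fragments over the summit, solved from the fold and p that the authors deposited, with a median of 9 in lipid overload and 5 in mock. From the background levels, the lipid-overload library was 2.62 times as deep as the mock one. Intervals are 95% exact intervals and cover counting error only.

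The starts of the protocadherin genes differ in base composition, and the sequences that show the contrast are given here as the 250 bases before the annotated start, 5′ to 3′ on the plus strand (RefSeq, GRCh38.p14). Capitals mark CGCT on either strand, which on the printed strand reads CGCT or AGCG. The first is PCDHAC1, chr5:140926049-140926298, whose start was the only 1 of the 53 with a peak within 1 kb. The others had none: its C-type neighbour PCDHAC2 at chr5:140966226-140966475, the gamma C-type gene PCDHGC3 at chr5:141475716-141475965, and the first gene of the alpha and of the gamma family, PCDHA1 at chr5:140785890-140786139 and PCDHGA1 at chr5:141330264-141330513.
PCDHAC1: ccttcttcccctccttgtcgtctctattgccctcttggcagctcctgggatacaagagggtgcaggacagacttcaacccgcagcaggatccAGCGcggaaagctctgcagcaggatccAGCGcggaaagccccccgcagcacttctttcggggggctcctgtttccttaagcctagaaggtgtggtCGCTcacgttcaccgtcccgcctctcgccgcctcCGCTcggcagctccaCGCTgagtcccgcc
PCDHAC2: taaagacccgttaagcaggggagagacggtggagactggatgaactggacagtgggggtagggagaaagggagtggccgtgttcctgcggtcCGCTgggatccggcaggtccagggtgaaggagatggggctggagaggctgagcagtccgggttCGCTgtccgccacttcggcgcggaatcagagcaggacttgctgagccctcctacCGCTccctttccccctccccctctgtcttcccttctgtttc
PCDHGC3: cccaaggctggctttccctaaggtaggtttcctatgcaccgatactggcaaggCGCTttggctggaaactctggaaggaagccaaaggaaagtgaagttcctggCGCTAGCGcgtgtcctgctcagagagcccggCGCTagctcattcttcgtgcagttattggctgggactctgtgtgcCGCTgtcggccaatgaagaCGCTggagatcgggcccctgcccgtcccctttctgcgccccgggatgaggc
PCDHA1: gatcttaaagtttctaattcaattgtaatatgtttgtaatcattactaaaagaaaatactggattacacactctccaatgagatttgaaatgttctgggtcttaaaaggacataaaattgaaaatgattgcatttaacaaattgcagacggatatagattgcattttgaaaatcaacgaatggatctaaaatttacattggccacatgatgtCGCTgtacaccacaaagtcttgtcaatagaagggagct
PCDHGA1: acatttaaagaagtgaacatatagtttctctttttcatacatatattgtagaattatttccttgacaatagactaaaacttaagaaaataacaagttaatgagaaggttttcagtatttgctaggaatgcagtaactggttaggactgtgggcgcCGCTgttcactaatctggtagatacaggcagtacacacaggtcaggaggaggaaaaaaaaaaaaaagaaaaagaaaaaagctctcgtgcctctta

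The 3 C-type stretches hold 63.2%, 62.4% and 60% G+C in the order printed, with 18, 13 and 15 CpG dinucleotides. PCDHA1 and PCDHGA1 hold 31.6% and 34.4%, with 3 CpG each. CGCT or its reverse complement occurs 5 times before PCDHAC1, 3 times before PCDHAC2, 6 times before PCDHGC3 and once before each of PCDHA1 and PCDHGA1. PCDHA1 and PCDHGA1 do not stand for all starts outside the C type, where the number varies. It is 0 before PCDHA9, 2 on each strand before PCDHB3, and 1 on the plus and 3 on the minus strand before PCDHGA2. So short a word can also occur by chance, so these marks are not calls of the promoter element.

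Lipid-overloaded cells had 3 peaks between the first start and the last end (interval 0.619 to 8.77), and mock cells had 0 (up to 3.69). As a density this was 4.13 peaks per Mb in lipid overload (0.851 to 12.1), against 9 per Mb over chromosomes 1 to 22 and X and 10.5 per Mb over chromosome 5 in the same list, both inside that interval. In mock, 0 peaks in 727 kb allow up to 5.08 per Mb, against 2.81 per Mb over chromosomes 1 to 22 and X and 3.46 per Mb over chromosome 5. A density below the genome's level was therefore not shown in either list. In mock it could not have been, since even 0 peaks in a stretch of this length allow the genome's level.

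**Figure D1:**
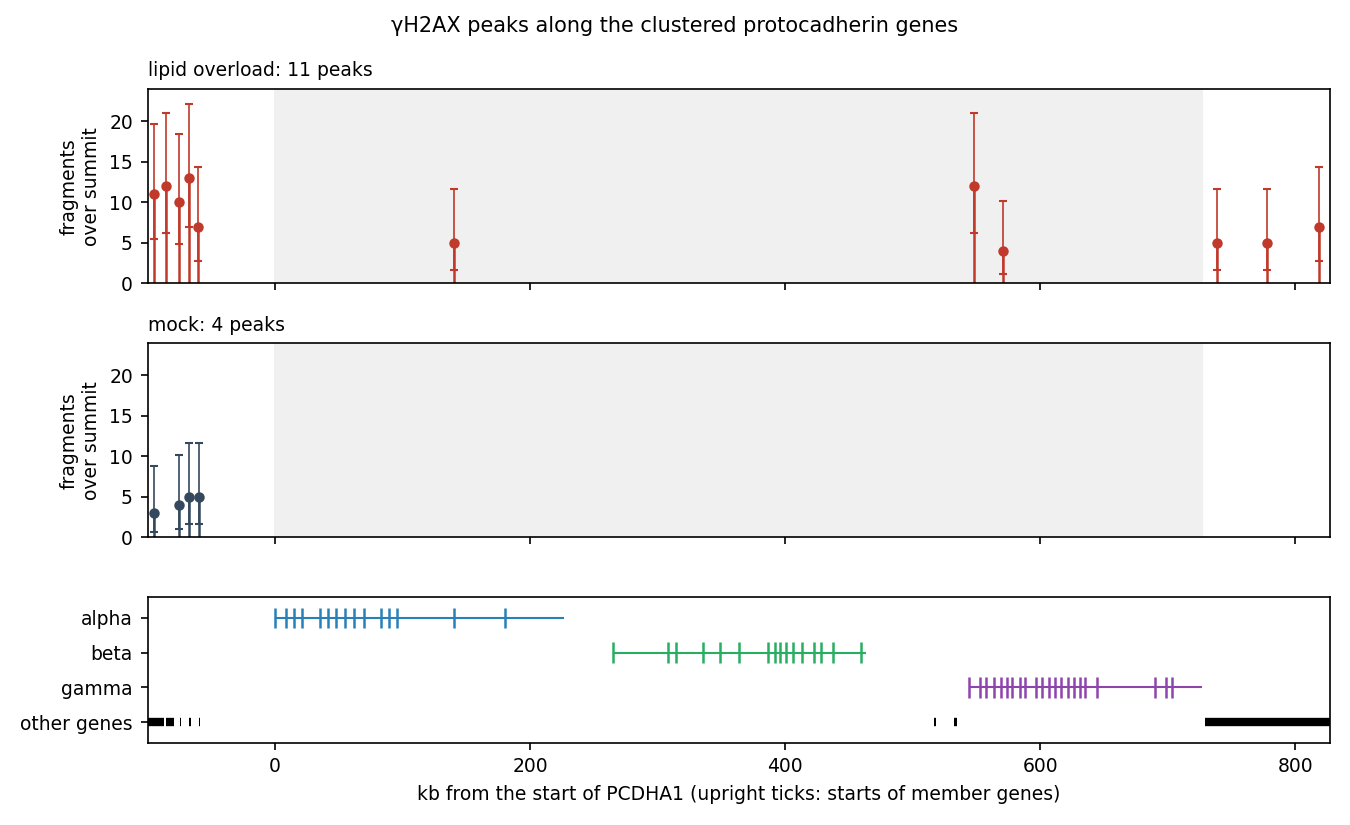
Peaks of lipid-overloaded cells (top, red) and mock cells (middle, dark blue) along the cluster and 100 kb on both sides, drawn as fragments over the summit with 95% exact Poisson intervals against the distance in kb from the start of PCDHA1. The shaded part is the cluster; the bottom row shows gene starts as upright ticks, each family's span as a line, and the other protein-coding and vault RNA genes as black bars. The 3 lipid-overload peaks of the cluster stand apart from the group of 5 upstream of it, and the mock peaks, 4 in all, lie upstream.

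Gene-rich stretches of the same length usually held more. Over 2952 windows of 727 kb outside the cluster with at least 1 protein-coding gene start, the median was 4 peaks in lipid overload and 2 in mock. By this measure the cluster was not unusual: 43.3% of these windows held 3 or fewer lipid-overload peaks and 27.6% held 0 mock peaks. The 89 windows with at least 20 such starts had a median of 31 lipid-overload peaks (quartiles 19 and 40) and 7 mock peaks (quartiles 4 and 11). Of these 89 windows, 2 held 3 or fewer peaks in lipid overload and 2 held 0 in mock, which is 2.25% for each list.

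The first of the 3 lipid-overload peaks lay at PCDHAC1, at chr5:140926508-140926825. It begins 209 bp and ends 526 bp after the annotated start, downstream of the sequence printed above. It rested on 5 fragments (1.62 to 11.7) over a local background of 0.299, with a fold of 4.62 and a −log10 q of 3.02 in the authors' list. Only 6.39% of the lipid-overload peaks had fewer fragments, so it is a weak peak, and with only peaks of −log10 q from 5 upwards 0 of the 53 starts would be marked, against 29.9% of all protein-coding starts. At the depth of the mock library 5 fragments would come to 1.91, under the 3 fragments of the weakest mock peaks, and its absence from the mock list could not be told from lower depth.

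The second peak was the highest of the whole region by −log10 q and lay in the gamma family at chr5:141334420-141334678. It had 12 fragments (6.20 to 21.0), a fold of 8.98 and a −log10 q of 10.5, rank 3913 of the 27296 lipid-overload peaks. It stood between variable starts, 3.91 kb after that of PCDHGA1 and 4.08 kb before that of PCDHGA2. It lies inside the annotated span of PCDHGA1 alone, and whether in an exon or an intron is not given in the tables used here. Scaled to the mock depth it would have 4.57 fragments, more than the 3 of the weakest mock peaks. No mock peak overlapped it, and a Poisson count with a mean of 4.57 can fall below 3.

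The third peak, at chr5:141357094-141357238, had 4 fragments (1.09 to 10.2), the fewest of any peak in the lipid-overload list. It began 2.07 kb after the start of PCDHGA4 and ended 2.76 kb before that of PCDHGB2. Scaled to mock depth it would have 1.52 fragments. None of the 3 cluster peaks overlapped a mock peak, against 14.3% of all lipid-overload peaks that did.

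Because the alpha and gamma genes run to common ends, counting by gene multiplies these peaks. The PCDHAC1 peak lies inside 14 of the 15 alpha genes, since the spans of PCDHA1 to PCDHA13 pass over it, and PCDHAC2 is the exception. The peak near PCDHGA4 lies inside 5 gamma genes, PCDHGA1, PCDHGA2, PCDHGA3, PCDHGB1 and PCDHGA4. Counted by gene, 19 of 53 members (35.8%) would hold a lipid-overload peak, from 3 distinct peaks. In mock 0 of 53 did.

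At the gene starts, 1 of 53 members had a lipid-overload peak within 1 kb (1.89%, 0.0478 to 10.1) and 0 of 53 a mock peak (0%, up to 6.72). Over 15818 protein-coding genes of known strand the shares were 42.6% in lipid overload and 12.9% in mock. A start marked in lipid overload and not in mock, as at PCDHAC1, was found for 30.8% of these genes. By family the lipid-overload count was 1 of 15 alpha starts, 0 of 16 beta starts and 0 of 22 gamma starts, and neighbouring starts share their surroundings, so they are not independent observations. The exact interval of a count of 0 reaches 20.6% in the beta and 15.4% in the gamma family.

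Distance to the nearest peak is given by family, without a level over all gene starts to set it against. The distances rest on few peaks and follow position along the chromosome. Many gamma distances run to the peak of 4 fragments near PCDHGA4 or to a peak of 5 fragments past the cluster. Every mock distance runs to the last mock peak before the cluster or the first after it. In lipid overload the median distance from a start to the nearest peak was 70.6 kb for the alpha, 150 kb for the beta and 32.9 kb for the gamma genes. In mock it was 115 kb, 454 kb and 579 kb in the same order. The starts of PCDHA1 to PCDHA5 were equally far from both lists within 0.1 kb, because their nearest peaks were those at the vault RNA gene upstream of the cluster, present in both conditions. From PCDHA6 onwards every start was nearer to a lipid-overload peak than to a mock peak. The gamma starts PCDHGA4 (2.07 kb), PCDHGB2 (2.76 kb), PCDHGA1 (3.91 kb) and PCDHGA2 (4.08 kb) came closest after PCDHAC1 (0.209 kb). The last start of the cluster, that of PCDHGC5, lay 35.8 kb from a lipid-overload peak and 480 kb from a mock peak.

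**Figure D2:**
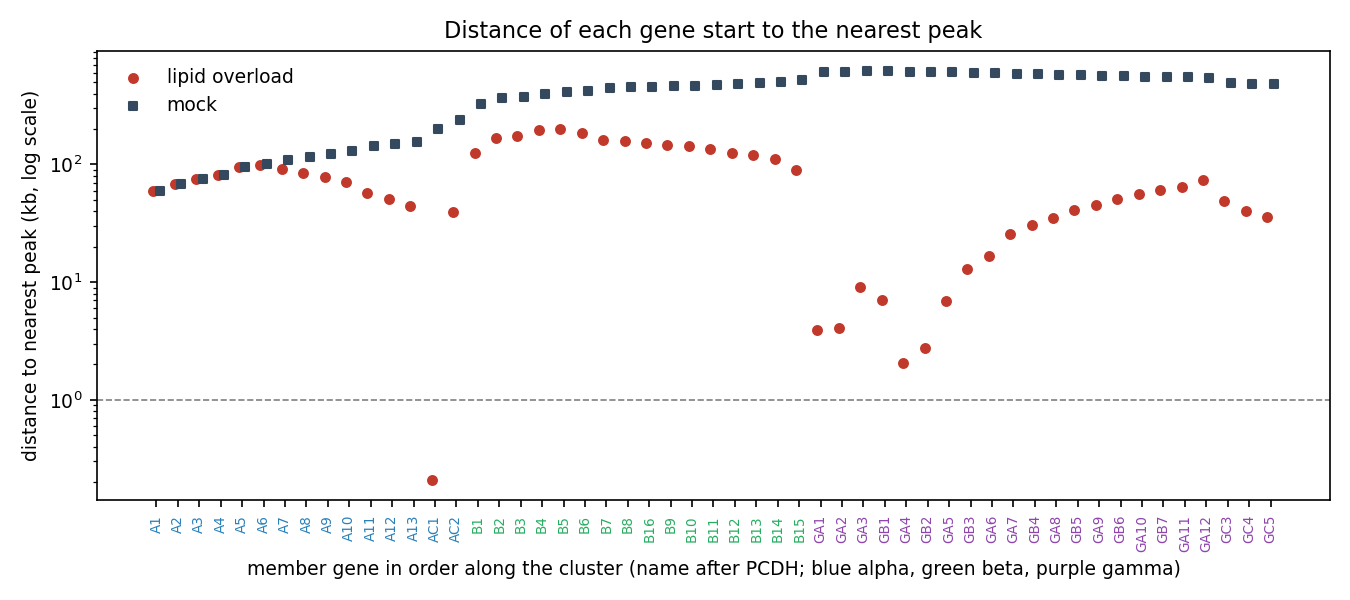
Distance in kb (log axis) from the start of each of the 53 genes to the nearest lipid-overload peak (red circles) and the nearest mock peak (dark blue squares), in order along the cluster. The dashed line is at 1 kb, and PCDHAC1 in lipid overload, at 0.209 kb, is the only point below it.

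The beta genes lay in a stretch without peaks in both lists. The longest lipid-overload gap of the cluster ran 408 kb, from the PCDHAC1 peak to the strongest gamma peak, and held 18 member starts: PCDHAC2, all 16 beta genes and PCDHGA1. Of 27247 stretches between neighbouring lipid-overload peaks, 5.05% were at least as long, with a median of 26.8 kb. The mock gap ran 1243 kb, from the peak at the vault RNA gene VTRNA1-3 to 456 kb past the last member, and held all 53 starts. Of 8498 mock stretches, 6% were at least as long, with a median of 115 kb. These shares count stretches, and the lipid-overload gap was picked as the longest touching the cluster. Long stretches take up a larger share of the genome's length than of the number, so the shares do not show how rare such a place is. PCDHB5, the beta gene farthest from any lipid-overload peak, lay 199 kb from one, and the beta gene nearest, PCDHB15, 89 kb.

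Both shared 3′ ends were without a peak. The alpha genes end together at position 141012347, where the nearest peak lay 85.5 kb away in lipid overload (that at PCDHAC1) and 286 kb away in mock. The gamma genes end together at 141512975, where the nearest peak lay 11.9 kb away in lipid overload and 456 kb away in mock. A peak within 1 kb of the 3′ end was rare among protein-coding genes at large, at 5.87% in lipid overload and 1.49% in mock, so 0 of 2 ends does not set the families apart.

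Other genes between the families had no peak either. TAF7, a subunit of the general transcription factor TFIID, lies between the beta and gamma genes, and its start was 13636 bp from the nearest lipid-overload peak and 594567 bp from the nearest mock peak. SLC25A2, a mitochondrial carrier gene beside it, had no peak within 1 kb of either end in either list. The protocadherin pseudogenes PCDHA14, PCDHB17P, PCDHB18P, PCDHB19P, PCDHGB8P and PCDHGB9P held 0 peaks in both lists.

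Peaks resumed 59.9 kb upstream of the cluster, where both conditions were marked. The 100 kb before PCDHA1 held 5 lipid-overload and 4 mock peaks, and all 4 mock peaks were shared with the lipid-overload list, as were 45.8% of the whole mock list. Of the 5, 3 stood at the vault RNA genes, short noncoding RNAs that are part of the vault particle. At VTRNA1-1 the lipid-overload peak had 10 fragments (4.80 to 18.4) and the mock peak 4 (1.09 to 10.2). At VTRNA1-2 the values were 13 (6.92 to 22.2) in lipid overload and 5 (1.62 to 11.7) in mock, where it was the highest peak of the region by −log10 q (3.46). At VTRNA1-3 they were 7 (2.81 to 14.4) in lipid overload and 5 (1.62 to 11.7) in mock. Scaled to mock depth the lipid-overload numbers are 3.81, 4.95 and 2.67, all inside the intervals of the mock numbers. The VTRNA1-3 peaks, the last before the cluster, lay 59.9 kb from the start of PCDHA1 in both lists.

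The other upstream peaks lay at the divergent start of the histidyl-tRNA synthetase genes HARS1 and HARS2, with 11 fragments in lipid overload (5.49 to 19.7) and 3 in mock (0.619 to 8.77), and at ZMAT2, a zinc finger gene, with 12 fragments (6.20 to 21.0) in lipid overload and no mock peak within 1 kb of its start. The ZMAT2 peak, chr5:140700268-140700414, falls inside the tabulated promoter, so the sequence under a peak can be shown there. These are the 250 bases before its start, chr5:140700197-140700446 on the plus strand, with the bases under the peak in capitals.
ZMAT2: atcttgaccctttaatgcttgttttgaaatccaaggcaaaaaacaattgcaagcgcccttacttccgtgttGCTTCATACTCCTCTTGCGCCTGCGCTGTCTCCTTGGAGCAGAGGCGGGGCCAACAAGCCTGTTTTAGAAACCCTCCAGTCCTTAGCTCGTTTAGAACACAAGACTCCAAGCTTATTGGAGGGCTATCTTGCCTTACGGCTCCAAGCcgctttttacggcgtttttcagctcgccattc

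The peak covers 147 of these 250 bases, which hold 49.2% G+C. Unlike this one, the PCDHAC1 peak lies past the gene start.

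Downstream of the cluster, lipid overload had 3 peaks in 100 kb and mock 0 (up to 3.69). All 3 lay inside DIAPH1, which encodes an actin-nucleating formin and reads towards the cluster. They had 5, 5 and 7 fragments. The start of DIAPH1 lies 106 kb past the last member, 6.03 kb outside the region, and had a lipid-overload peak of 17 fragments (9.90 to 27.2), with the nearest mock peak 350 kb away.

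The bases before the member starts were poorer in G+C than those of protein-coding genes at large. Of the 53 members, 47 have a promoter in the RefSeq table, 13 alpha, 14 beta and 20 gamma. In the 250 bases before the start their median G+C was 37.6% (30 to 63.2%), against 62% over 15812 protein-coding genes. By family the medians were 34.8% (alpha), 39.6% (beta) and 40.2% (gamma). The 4 members at 50% or more were all C-type genes, PCDHAC1, PCDHAC2, PCDHGC3 and PCDHGC4, and the other 43 lay between 30% and 48.8%.

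Across all protein-coding genes the share of starts with a peak varied with the same property. Protein-coding genes with under 50% G+C before the start had a peak within 1 kb in 12.1% of cases in lipid overload (11 to 13.3) and in 3.89% in mock (3.23 to 4.63). Those at 50% or more had one in 50.1% (49.2 to 51.0) and 15.2% (14.5 to 15.8). Members under 50% stood at 0 of 43 in both lists (up to 8.22%), and members at 50% or more at 1 of 4 in lipid overload (0.631 to 80.6%) and 0 of 4 in mock. Most members lie well below 50%, in bins of 30% to 45% G+C where 3.27%, 7.57% and 9.93% of all starts had a lipid-overload peak. Averaged over the bins of the 43 members under 50%, the share of all genes was 8% in lipid overload and 2.6% in mock, both within the interval of 0 of 43. Adding up, for the 47 members, the share of all genes in the same 5% bin of G+C gives 5.4 starts in lipid overload and 1.73 in mock, where 1 and 0 were found. How far composition accounts for the low counts was not tested.

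**Figure D3:**
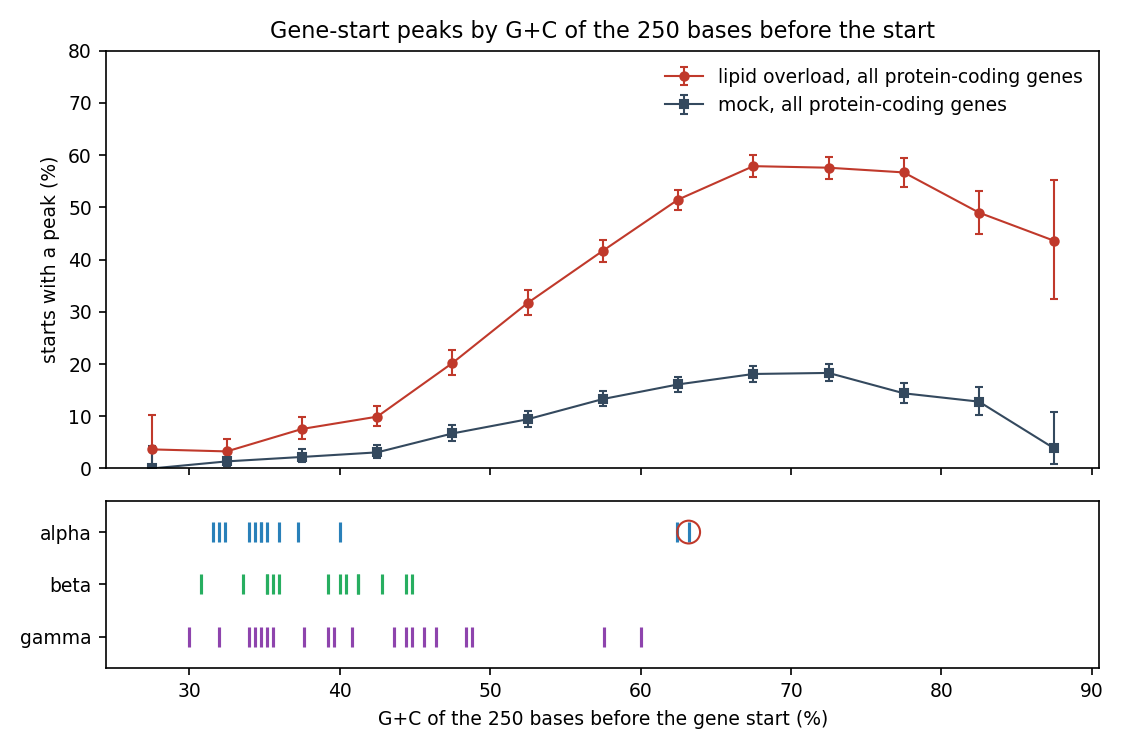
Top, share of protein-coding gene starts with a peak within 1 kb (%) by G+C of the 250 bases before the start, in 5% bins, for lipid overload (red circles) and mock (dark blue squares) with 95% exact binomial intervals. Bottom, the G+C of each of 47 protocadherin genes by family as upright ticks, with PCDHAC1 circled; 43 of them lie under 50%, where the share of all starts with a peak is lower.

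The members also held fewer CpG dinucleotides in these 250 bases, with a median of 6 against 17 over all protein-coding genes. Starts with at least 50% G+C and a ratio of observed to expected CpG of at least 0.6 made up 3 of 47 members (6.38%) and 60.2% of all genes. Such CpG-rich starts had a lipid-overload peak in 59% of cases over all genes, and the others in 17.9%. The ratio alone, which allows for base composition, had a median of 0.628 over the members (0.270 to 1.14) and 0.735 over all genes. The letters CGCT, searched on both strands, occurred before 45 of 47 member starts (95.7%) and before 75.8% of all protein-coding starts. Among starts under 50% G+C they occurred in 41 of 43 members (95.3%) and 34.5% of all genes. PCDHA9 and PCDHB8 are the members without it in this window.

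Other tandem gene clusters served as a comparison. Of 39 HOX genes, which set position along the body axis, 20 have a known strand here, and 2 of these starts had a peak in lipid overload (10%, 1.23 to 31.7) and 1 in mock (5%, 0.127 to 24.9). Of 171 olfactory receptor genes on chromosome 11, 135 have a known strand, and 1 start had a peak in each list (0.741%, 0.0188 to 4.06). The intervals of the protocadherin shares overlap both. Among protocadherins outside the cluster, 10 of 12 listed have a known strand. Of these, PCDH1, an adhesion protein of epithelia, was the only 1 with a start peak in lipid overload, of 10 fragments (4.80 to 18.4). The share of these 10 starts was 10% (0.253 to 44.5) in lipid overload and 0% (up to 30.8) in mock. Both intervals take in the shares over all protein-coding starts, 42.6% in lipid overload and 12.9% in mock. The non-clustered protocadherins are therefore not distinguished from the background.

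Genes for the proteins that organise and silence the cluster often had a start peak in lipid overload. Of 15 with a known strand among 17 listed, 14 had a start peak in lipid overload (93.3%, 68.1 to 99.8) and 3 in mock (20%, 4.33 to 48.1), against 42.6% and 12.9% of all genes in these lists. The mock interval takes in the share over all genes, so only the lipid-overload share stands above it. The base composition of these 15 starts is not given here. CTCF itself had 29 fragments (19.4 to 41.6) in lipid overload and 9 (4.12 to 17.1) in mock. The cohesin ring subunit SMC3 had 20 (12.2 to 30.9) in lipid overload and 5 (1.62 to 11.7) in mock, and the cohesin release factor WAPL 11 (5.49 to 19.7) in lipid overload and 4 (1.09 to 10.2) in mock. STAG1, another cohesin subunit, had 25 (16.2 to 36.9) in lipid overload and no mock peak at its start. PDS5A was the only one without a peak in either list.

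Partners of the protocadherin proteins were marked in 4 of 7 cases in lipid overload (57.1%, 18.4 to 90.1) and 2 of 7 in mock (28.6%, 3.67 to 71.0), of 10 listed. Both intervals take in the shares over all protein-coding starts, 42.6% in lipid overload and 12.9% in mock, so these genes are not distinguished from the background. AXIN1, a scaffold of Wnt signalling, had 45 fragments (32.8 to 60.2) in lipid overload and 9 (4.12 to 17.1) in mock. PDCD10, a scaffold protein, had 14 (7.65 to 23.5) in lipid overload and 6 (2.20 to 13.1) in mock. ADAM10, a protease that sheds cadherin ectodomains, had 12 (6.20 to 21.0), and the kinase gene WNK1 17 (9.90 to 27.2), in lipid overload only. Among the genes with a mock peak, scaled to the mock depth, the lipid-overload numbers of CTCF (11.1), SMC3 (7.62), WAPL (4.19) and PDCD10 (5.33) lie inside the intervals of their mock numbers, and that of AXIN1 (17.1) lies at the upper bound of its interval. Genes with a start peak in lipid overload only have no mock number to set beside it. Scaled in the same way, STAG1 comes to 9.53, WNK1 to 6.48 and ADAM10 to 4.57 fragments, above the 3 of the weakest mock peaks. All 11 such genes of the architecture and silencing list, scaled to between 3.05 and 9.53, would reach that number. Poisson counts with such means can still fall below 3, and a start without a called mock peak may hold fragments. Over all protein-coding starts, 30.8% had a peak in lipid overload only. Of all starts 42.6% had a lipid-overload peak, and 35.2% had one that reaches 3 fragments after scaling. Reaching that number is thus usual for a marked start and not particular to this list. Whether depth accounts for the missing mock peaks was not tested.

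**Figure D4:**
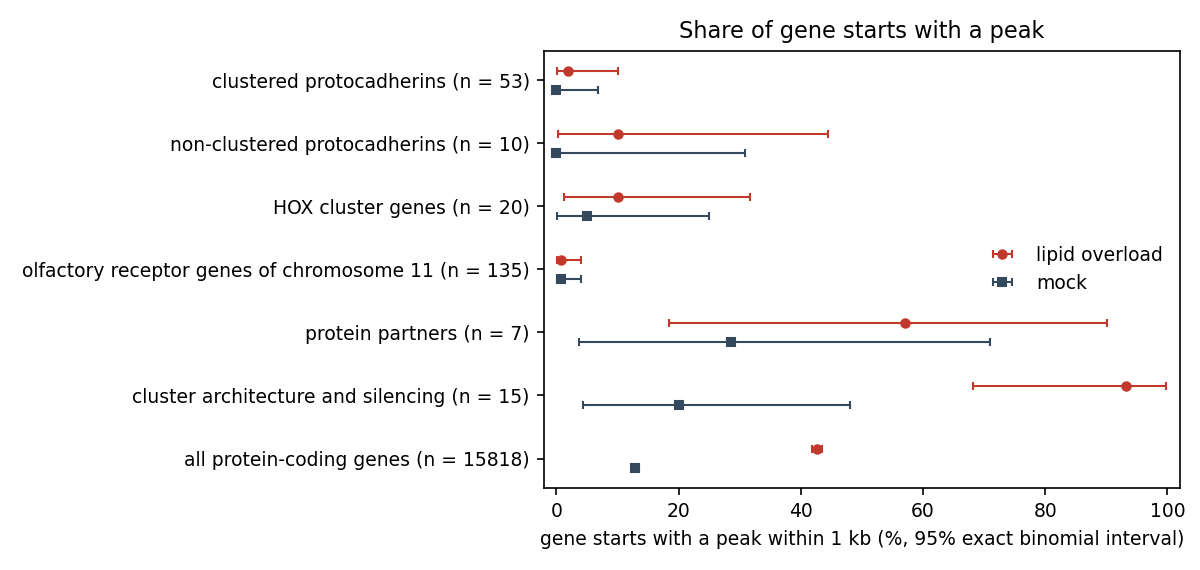
Share of gene starts with a peak within 1 kb (%), with 95% exact binomial intervals, for the clustered protocadherins and 6 other gene sets, in lipid overload (red circles) and mock (dark blue squares). Clustered protocadherins stand at 1.89% in lipid overload and 0% in mock, against 42.6% and 12.9% of all protein-coding genes.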

How the data were processed

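The submitters' processing notes name MACS2 2.1.2, BWA, deepTools and FastQC and the build hg38. Tool settings, and whether IgG served as control, were not given in the sources used here. Each library has its own peak list. Beside the position, the authors deposited for every peak the caller's score, the fold (a linear ratio), −log10 p and q, and the summit's offset. No deposited −log10 q was under 1.30.

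Fold and −log10 p were solved together for the fragments over the summit, under MACS2's formulas (fold is fragments plus 1 over background plus 1). A whole number fitted 100% of the peaks within 0.0001 in log10 p. Peaks simulated with these same formulas returned their true number in 100% of cases in both lists. That checks the solving step only, not whether the formulas hold for the deposited values. The lowest background, 0.289 in lipid overload and 0.121 in mock, divided by a fragment length of 124 and 137 bp read from the steps of the local background, gave the depth ratio.

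Genes came from RefSeq (GRCh38.p14, the coordinates of hg38). Strand was taken from the promoter table, and 4156 protein-coding genes without one were left out. The 6 members without an entry were kept and read on the plus strand like the other 47. They are counted in the 15818 genes of known strand. Overlap meant at least 1 bp, computed with numpy 2.4.6 and pandas 2.3.3; exact intervals came from scipy 1.17.1. Depth is known only as fragments at peaks; PCR copies are not independent molecules. Members and lists were chosen with earlier results of these data known. Named were every member with a start peak, every peak of the cluster, the other coding genes of the region with a peak at an end, and up to 4 genes of each other list. Vault RNA genes, pseudogenes, TAF7, SLC25A2, PDS5A, DIAPH1-internal peaks and the members named for distance or composition were chosen after values were seen. Windows, gaps and base composition were also added after the data were seen.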

Additional observations from a re-analysis of the deposited data

How the results depend on the processing

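With 1 library per condition, no alternative gives a test. No paired analysis was possible because each group has 1 sample and the labels give no replicate numbers. Lipid-overload peaks of the cluster fell to 1, the one between PCDHGA1 and PCDHGA2, under each of 4 settings: peaks kept from −log10 q 5 upwards, peaks kept from fold 5 upwards, the lipid-overload list shortened to the mock length, and lipid-overload fragment numbers that reach the mock minimum after depth scaling; the mock count stayed 0. Under these the member starts with a lipid-overload peak went to 0, while all protein-coding starts stood at 29.9%, 35%, 26.1% and 35.2% in this order. The call at PCDHAC1 therefore depends on the threshold. With a 3 kb window 3 starts were marked (PCDHAC1, PCDHGA4 and PCDHGB2), against 47.1% of all starts. Those of PCDHGA4 and PCDHGB2 were marked by the same peak, that of 4 fragments between them. In the region with flanks the lipid-overload count of 11 became 6, 7, 5 and 5 under the 4 settings in the same order, and the mock count of 4 became 0 under the first setting and 2 under the second. Without flanks the counts were 3 and 0. With an overlap of 50% of each peak, 2 lipid-overload and 2 mock peaks of the region remained shared, from 4 each. Merging peaks, the 250 bp window and the 1 kb overlap rule left every count as reported, and the shared 3′ ends had 0 peaks under each setting run. The deeper library sets what can be compared: at the mock depth, peaks under 8 lipid-overload fragments would fall below the weakest mock peaks. That takes in 2 of the 3 cluster peaks. In the whole lipid-overload list 30.1% of peaks had fewer than 7 fragments, so such peaks are common beyond the cluster.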
